A study of Mus musculus with 8 samples.

Results

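Ankyrins and spectrins build the membrane skeleton of neurons, and 9 genes of this machinery were followed with age in the mouse brain: the ankyrins Ank1, Ank2 and Ank3, the alpha spectrin Sptan1, the beta spectrins Sptb, Sptbn1 and Sptbn4, and the adhesion molecules Nfasc and Nrcam. They were chosen by their role at the axon initial segment and in the membrane skeleton, and they are 9 of the 22430 genes listed in the count table. All 9 were among the 16730 genes tested, those that exceeded 5 counts in 4 or more libraries. Polyadenylated RNA was sequenced from the brains of male C57Bl/6JRj mice, for which no engineered allele or treatment is named, 4 young adult animals aged 6 months (6m) and 4 aged animals aged 24 months (24m). The labels name the tissue as whole brain, and the extraction notes as a hemisphere of each animal. In such bulk RNA, fewer cells of a type and less RNA per cell cannot be told apart, and counts per gene do not separate the many isoforms of these genes.

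Alpha and beta spectrin pair into long tetramers that cross-link short actin filaments under the plasma membrane, and in axons they lie between evenly spaced actin rings. Ankyrins are adaptors that tie this lattice to membrane proteins. Ankyrin-G, the product of Ank3, is the organiser of the axon initial segment and nodes of Ranvier, where it holds sodium and potassium channels, beta-IV spectrin (Sptbn4), neurofascin (Nfasc) and NrCAM (Nrcam) in place. Ankyrin-B (Ank2) and beta-II spectrin (Sptbn1) line the rest of the axon, and ankyrin-R (Ank1) and beta-I spectrin (Sptb) were first known from the red blood cell and are also made in neurons. Sptan1 encodes the alpha subunit used throughout the brain.

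Nfasc and Nrcam dock on ankyrins through a short stretch of the cytoplasmic tail known as the FIGQY motif, whose tyrosine, once phosphorylated, no longer binds ankyrin. The coding bases of this stretch are given because they are the link between the adhesion molecules and the ankyrins followed here, with 12 bases on each side and the 15 bases of the motif in capitals, 5′ to 3′ on the strand of the gene. They were read from GRCm39 with the canonical transcripts of GENCODE, and the relatives L1cam and Chl1, which also bind ankyrins, are shown for comparison. In each gene the stretch lies in the last exon and is coding: chr1:132498245-132498259 on the minus strand in exon 26 of 26 of Nfasc, chr12:44645269-44645283 on the plus strand in exon 29 of 29 of Nrcam, chrX:72898728-72898742 on the minus strand in exon 28 of 28 of L1cam, and chr6:103706210-103706224 on the plus strand in exon 27 of 27 of Chl1. The motif is followed by 28 residues in Nfasc, Nrcam and L1cam and by 23 in Chl1, which carries a variant of the motif.
Nfasc: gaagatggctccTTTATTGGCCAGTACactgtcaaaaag
Nrcam: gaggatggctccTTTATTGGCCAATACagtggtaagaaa
L1cam: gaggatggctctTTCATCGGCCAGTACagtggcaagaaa
Chl1: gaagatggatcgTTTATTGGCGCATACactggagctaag

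The promoters of the 2 genes with the largest change with age, Ank2 and Sptb, and of the 2 genes that were not called, Sptan1 and Sptbn4, are printed to show the sequence at which their transcripts start. Each run is the 250 bases before the start of the canonical GENCODE transcript in GRCm39, read 5′ to 3′ on the strand of the gene: chr3:127019497-127019746 (minus) for Ank2, chr12:76757322-76757571 (minus) for Sptb, chr2:29855078-29855327 (plus) for Sptan1 and chr7:27146025-27146274 (minus) for Sptbn4. Capitals mark matches on either strand to the GC box GGGCGG or the CCAAT box CCAAT. The Ank2 and Sptbn4 starts lie inside the annotated gene, since other transcripts of these genes begin further upstream.
Ank2: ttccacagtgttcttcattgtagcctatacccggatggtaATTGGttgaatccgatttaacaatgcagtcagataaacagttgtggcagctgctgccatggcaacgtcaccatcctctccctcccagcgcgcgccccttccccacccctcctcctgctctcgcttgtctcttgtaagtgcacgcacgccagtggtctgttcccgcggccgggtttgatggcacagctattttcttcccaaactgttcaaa
Sptb: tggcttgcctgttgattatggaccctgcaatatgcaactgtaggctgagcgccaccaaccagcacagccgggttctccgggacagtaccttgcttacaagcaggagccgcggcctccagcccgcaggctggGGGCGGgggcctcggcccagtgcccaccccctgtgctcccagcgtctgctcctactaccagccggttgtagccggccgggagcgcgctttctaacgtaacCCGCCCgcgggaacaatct
Sptan1: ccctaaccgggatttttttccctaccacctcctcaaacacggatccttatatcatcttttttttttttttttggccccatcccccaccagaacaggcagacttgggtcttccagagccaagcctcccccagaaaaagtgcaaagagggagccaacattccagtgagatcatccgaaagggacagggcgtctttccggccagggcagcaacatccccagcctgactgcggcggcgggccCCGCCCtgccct
Sptbn4: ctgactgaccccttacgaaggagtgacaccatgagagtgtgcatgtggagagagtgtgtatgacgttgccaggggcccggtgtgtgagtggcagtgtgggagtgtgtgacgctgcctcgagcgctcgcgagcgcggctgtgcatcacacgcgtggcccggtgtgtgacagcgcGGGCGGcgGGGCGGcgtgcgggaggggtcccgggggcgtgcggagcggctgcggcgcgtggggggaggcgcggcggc

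A GC box was found before 7 of the 9 genes and in 44.9% of the 16677 promoters of tested genes in the annotation. The window of Sptbn1 held 7 matches, some of which overlap, and those of Ank2 and Ank3 held 0. A CCAAT box was found before Ank1, Ank2 and Ank3 and before none of the spectrins, Nfasc or Nrcam, and it was found in 35.5% of all promoters. The letters of the TATA box TATAAA, the E box CACGTG, the cyclic AMP response element TGACGTCA, a part of the REST element (TTCAGCACC) and the palindromic NRF1 core, searched on both strands, were in none of the 9 windows and in 8.14%, 7.32%, 1.89%, 0.276% and 0.845% of all promoters. GC content ran from 52% in Ank1 and Ank3 to 79.6% in Sptbn1, against a median of 56% over all promoters. GC boxes stood before Sptb, which was called, and before Sptan1 and Sptbn4, which were not.

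Library totals were 63460940 to 103462414 counts, and 24m replicate 1 was the deepest. Markers of neurons (8 of 8 tested), oligodendrocytes (8 of 8) and astrocytes (8 of 8) were present in all libraries, as the tissue label says. Summed neuronal markers were 3481 to 3711 counts per 1e+06 counts (CPM) in 6m and 3296 to 3668 CPM in 24m, and summed oligodendrocyte markers 3336 to 4192 CPM in 6m and 3581 to 4225 CPM in 24m. The library size used for CPM was corrected by TMM, the trimmed mean of M values. A library of the older group, 24m replicate 1, stood nearest to the 6m libraries for the genes described here and had the lowest 24m level of all 9, so log2FC and counts of calls without it are also given.

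The ankyrins, the adhesion molecules Nfasc and Nrcam and the beta spectrins Sptb and Sptbn1 rose in the aged brain: 7 of the 9 genes passed the test as higher in 24m and 0 as lower. A gene was called when its edgeR p after Benjamini-Hochberg adjustment (padj) did not exceed 0.05 and its log2 fold change (log2FC) reached 0.58 in size. Across all tested genes 25.3% were called higher and 18.3% lower. The median log2FC of the 9 genes was 1.01, beside -0.003 over all tested genes. Without 24m replicate 1 again 7 of 9 were called higher, with a median of 1.13 and 27.8% of all genes called higher and 21.9% lower. With scaling to library totals alone, 7 were called higher, and that scaling moved the median of all genes to 0.21 and the calls over all genes to 32.6% higher and 10.4% lower. On padj alone 8 of the 9 genes were higher, with 32.7% of all tested genes. In 5 genes (Ank1, Ank2, Sptb, Sptbn4 and Nfasc) all 24m libraries lay above all 6m libraries, a pattern seen in 28.4% of all tested genes. Long genes as a class were higher in 24m, and with that trend over gene length removed 3 of the 9 genes were called (Ank1, Ank2 and Sptb), as described with the length values.

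**Figure D1:**
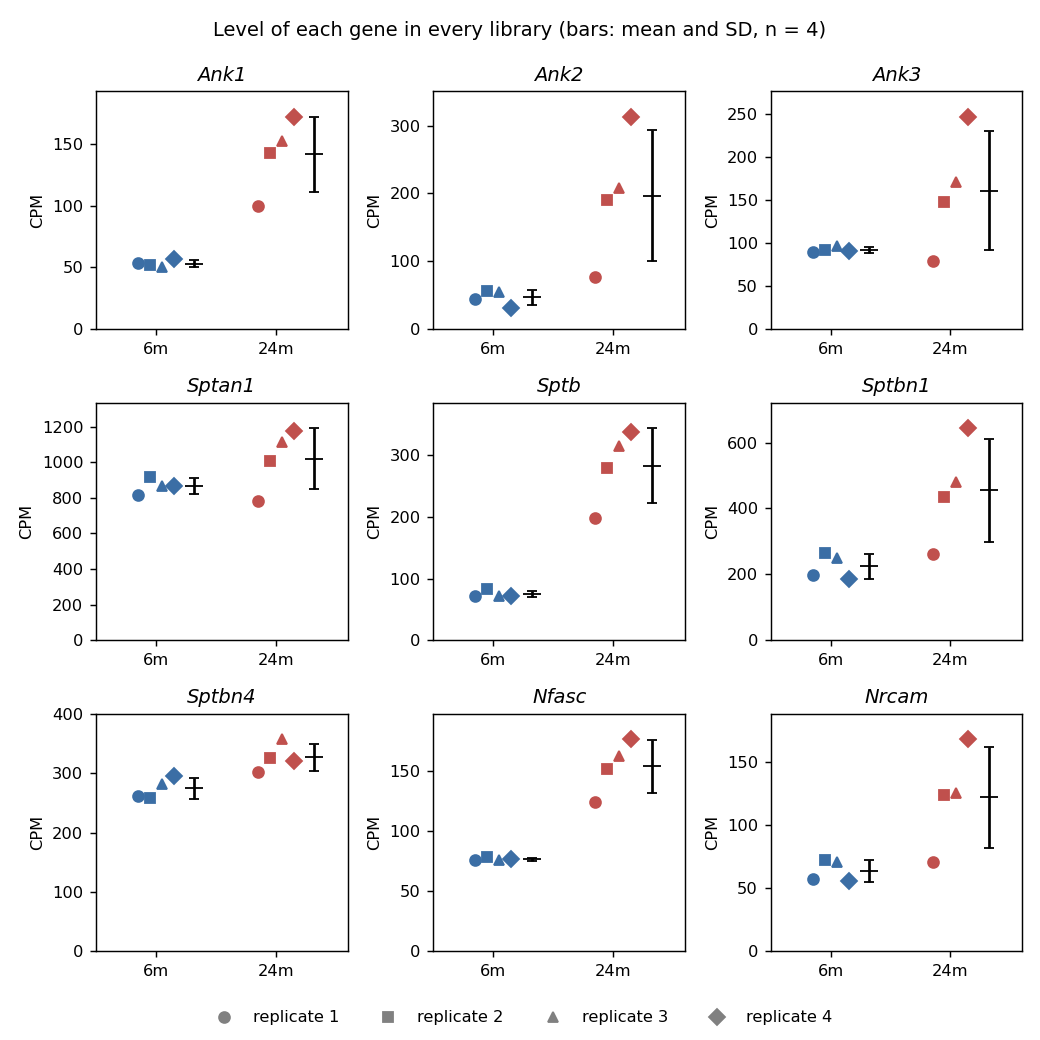
Level in CPM (vertical axis, linear from 0) of each of the 9 genes in every library at 6m and 24m, with the marker giving the replicate and black bars the mean and SD of 4 libraries. The 24m replicate 1 library is the lowest 24m value in all 9 panels, and in Ank3 (78.7 CPM) and Sptan1 (783 CPM) it lies below every 6m library.

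Ank1 (ENSMUSG00000031543, chr8:23464860-23640513, plus strand) encodes ankyrin-R, which links beta-I spectrin to membrane proteins. Ank1 was at 53.9, 52.0, 50.2 and 56.6 CPM in the 6m replicates 1 to 4, and the 24m replicates had 99.8, 142, 152 and 172 CPM. The 6m libraries were tightly grouped and all 24m libraries lay above them. Ank1 rose 2.66-fold, from 53.2 ± 2.73 CPM at 6 months to 142 ± 30.5 CPM at 24 months (SD, n = 4 per age), with a log2FC of 1.41 ± 0.15 (SE, padj = 8.03e-05, edgeR).

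Ank2 (ENSMUSG00000032826, chr3:126715261-127292999, minus strand) encodes ankyrin-B, the adaptor of the axon shaft, and its canonical transcript carries a single coding exon of 6198 bases, the exon of the giant neuronal isoform. Ank2 was at 44.8, 56.6, 54.4 and 31.7 CPM in the 6m replicates 1 to 4, and the 24m replicates had 76.4, 190.5, 207 and 313 CPM. The ages did not overlap, yet the 24m libraries were spread widely. The mean rose from 46.9 ± 11.3 CPM at 6 months to 197 ± 96.8 CPM at 24 months, 4.20-fold, with a log2FC of 2.07 ± 0.37 (SE, padj = 0.00105, edgeR). This was the largest log2FC of the 9 genes in the fit with all libraries and no offset, while without 24m replicate 4 it was 1.75 beside 1.83 for Sptb, and with the length offset described with gene length 1.19 beside 1.46.

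Ank3 (ENSMUSG00000069601, chr10:69234603-69863268, plus strand) encodes ankyrin-G. Ank3 was at 89.1, 92.5, 97.2 and 90.7 CPM in the 6m replicates 1 to 4, and the 24m replicates had 78.7, 148, 171 and 247 CPM. The 6m libraries lay close together, 24m replicate 1 lay below them and the other three 24m libraries above them, so the ages overlapped. The mean rose from 92.4 ± 3.49 CPM at 6 months to 161 ± 69.4 CPM at 24 months with a log2FC of 0.80 ± 0.27 (SE, padj = 0.0257, edgeR), and this call was lost, with padj of 0.0532 to 0.0634, when 6m replicate 1, 2 or 4 or 24m replicate 3 or 4 was left out. Its log2FC was 0.52 without 24m replicate 4 and 1.04 (padj = 7.37e-05, edgeR) without 24m replicate 1.

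Sptan1 (ENSMUSG00000057738, chr2:29855328-29921463, plus strand) encodes the alpha spectrin of non-erythroid cells, the common partner of the beta spectrins. Sptan1 was at 815, 918, 864 and 869 CPM in the 6m replicates 1 to 4, and the 24m replicates had 783, 1006, 1116 and 1175 CPM. The ages overlapped. Its means were 867 ± 42.2 CPM at 6 months and 1020 ± 173 CPM at 24 months, and the log2FC of 0.23 ± 0.13 (SE, padj = 0.129, edgeR) did not pass the test. Without 24m replicate 1 the log2FC was 0.35 (padj = 0.00193, edgeR), past the padj threshold and below the fold threshold.

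Sptb (ENSMUSG00000021061, chr12:76627247-76757321, minus strand) encodes beta-I spectrin, which pairs with ankyrin-R. Sptb was at 72.4, 82.5, 72.5 and 71.3 CPM in the 6m replicates 1 to 4, and the 24m replicates had 199, 280.1, 316 and 338 CPM. Every 24m library was above every 6m library, with a gap between the ages wider than the range within 6m. Sptb rose 3.79-fold, from 74.7 ± 5.27 CPM at 6 months to 283 ± 61.1 CPM at 24 months, with a log2FC of 1.92 ± 0.15 (SE, padj = 2.68e-05, edgeR), the smallest padj of the 9 genes.

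Sptbn1 (ENSMUSG00000020315, chr11:30049394-30218191, minus strand) encodes beta-II spectrin, the main beta spectrin of the axon shaft and of many other cells. Sptbn1 was at 198, 264, 249.5 and 185 CPM in the 6m replicates 1 to 4, and the 24m replicates had 261, 435, 479 and 644 CPM. The ages overlapped at a single pair, 24m replicate 1 being just below 6m replicate 2. Sptbn1 rose from 224 ± 38.4 CPM at 6 months to 455 ± 157 CPM at 24 months, with a log2FC of 1.02 ± 0.24 (SE, padj = 0.00465, edgeR).

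Sptbn4 (ENSMUSG00000011751, chr7:27055808-27147111, minus strand) encodes beta-IV spectrin, the form held at the initial segment and nodes by ankyrin-G. Sptbn4 was at 262, 259, 282 and 296 CPM in the 6m replicates 1 to 4, and the 24m replicates had 301, 326, 357 and 321 CPM. The ages did not overlap, but the step between them was small. The means were 275 ± 17.4 CPM at 6 months and 327 ± 23.2 CPM at 24 months, and the log2FC of 0.25 ± 0.08 (SE, padj = 0.0261, edgeR) was past the padj threshold and below the fold threshold, so Sptbn4 was not called.

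Nfasc (ENSMUSG00000026442, chr1:132492428-132669564, minus strand) encodes neurofascin, made as a neuronal form at initial segments and nodes and as a glial form at the paranode, which the counts add together. Nfasc was at 75.5, 78.3, 75.4 and 76.5 CPM in the 6m replicates 1 to 4, and the 24m replicates had 124, 151, 162 and 176 CPM. The 6m libraries were nearly equal and all 24m libraries were higher. Nfasc rose 2.01-fold, from 76.4 ± 1.36 CPM at 6 months to 154 ± 22.1 CPM at 24 months, with a log2FC of 1.01 ± 0.11 (SE, padj = 8.06e-05, edgeR).

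Nrcam (ENSMUSG00000020598, chr12:44375287-44651976, plus strand) encodes an adhesion molecule of the same family, present at initial segments, nodes and growing axons. Nrcam was at 57.1, 72.7, 70.7 and 55.7 CPM in the 6m replicates 1 to 4, and the 24m replicates had 70.8, 124, 126 and 168 CPM. The ages overlapped through 24m replicate 1 alone. Nrcam rose from 64.0 ± 8.86 CPM at 6 months to 122.4 ± 40.02 CPM at 24 months, with a log2FC of 0.93 ± 0.22 (SE, padj = 0.00514, edgeR).

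The 9 genes thus fell into those with a separated and larger step (Ank1, Ank2, Sptb and Nfasc), those called with overlapping ages (Ank3, Sptbn1 and Nrcam), and Sptan1 and Sptbn4, which were not called. Counts per library ranged from 2094 (Ank2) to 102502 (Sptan1). Within 24m, replicate 4 was the highest library for 8 of the 9 genes, all but Sptbn4, and replicate 1 the lowest for all 9. The log2FC without 24m replicate 1 was 1.56 for Ank1, 2.35 for Ank2, 2.07 for Sptb, 1.22 for Sptbn1, 0.30 for Sptbn4, 1.11 for Nfasc and 1.13 for Nrcam. Each of the 9 genes overlaps other annotated genes. Ank2 has 15 on the same strand and 5 on the other, and Ank1 has 3 and 5. Among the overlapping genes, the neighbours Cdk1, Plekhg3 and Dync2i2 overlap the ends of Ank3, Sptb and Sptan1 on the other strand. How strand was used in counting was not stated, so reads in the overlapping stretches are uncertain. Mean levels in 6m and 24m were 0.563 and 0.345 CPM for Cdk1, 27.2 and 34.96 CPM for Plekhg3, and 76.0 and 50.6 CPM for Dync2i2.

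Per exonic kilobase, Sptan1 had the highest level at both ages, 63.4 ± 3.09 CPM per kb in 6m and 74.6 ± 12.6 in 24m (SD, n = 4). Sptbn4 followed at 28.7 ± 1.82 CPM per kb in 6m and Sptbn1 at 12.8 ± 2.19. Sptb had 6.14 ± 0.433 CPM per kb, Nfasc 4.35 ± 0.0772, Ank1 3.93 ± 0.201, Nrcam 3.34 ± 0.462, Ank3 2.53 ± 0.0954 and Ank2 1.32 ± 0.319. In the 6m order on this scale only Ank1 and Nrcam were neighbours whose libraries overlapped. In 24m the libraries of Sptbn4 (34.2 ± 2.43 CPM per kb) overlapped those of Sptbn1 (26.0 ± 8.98), and these overlapped those of Sptb (23.3 ± 5.03), which lay above all libraries of Ank1. The lower levels, Ank1 (10.5 ± 2.25 CPM per kb), Nfasc (8.74 ± 1.26), Nrcam (6.38 ± 2.09), Ank2 (5.54 ± 2.73) and Ank3 (4.40 ± 1.90), also overlapped from each gene to the next. The division uses all annotated exons and understates genes whose long exons are little used, so the order depends on the length taken. Per kilobase of the canonical transcript, a scale added after the data were seen, Sptan1 was again at the top at both ages and Ank2 at the bottom in 6m. On that scale the mean of Ank3 was above those of Ank1, Nfasc and Sptb in 6m (9.27 ± 0.350, 8.50 ± 0.435, 8.01 ± 0.142 and 7.17 ± 0.506 CPM per kb). In 24m the mean of Sptbn1 (53.6 ± 18.5) was above that of Sptbn4 (37.3 ± 2.65). The libraries of Ank3 and Ank1 overlapped in 6m, and those of Sptbn1 and Sptbn4 in 24m. Ank3 and Ank2 had nearly the same mean in 24m (16.2 ± 6.96 and 15.9 ± 7.80), so no order between them is read.

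Within each family the make-up of the counts per exonic base differed between the ages, and such shares do not depend on library scaling. They are given as a description with no test. Sptb held 13.3%, 13.9%, 11.98% and 12.4% of the beta spectrin total of Sptb, Sptbn1 and Sptbn4 in the 6m replicates. The 24m replicates gave it 26.0%, 28.1%, 28.6% and 28.3%. Every 24m share was above every 6m share, 24m replicate 1 included, and the mean went from 12.9 ± 0.863% to 27.8 ± 1.17% (SD, n = 4). The share of Sptbn4 went from 60.3 ± 4.16% to 41.8 ± 6.55%, with all 24m libraries below all 6m libraries. The share of Sptbn1 overlapped between ages, 26.8 ± 3.73% and 30.4 ± 5.60%, and its difference of 3.64 percentage points was 1.3 without 24m replicate 4 and 5.86 without 24m replicate 1.

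Among the ankyrins, the 6m replicates 1 to 4 gave Ank3 31.7%, 31.7%, 33.7% and 32.8% of the total, and the 24m replicates 18.4%, 20.2%, 21.4% and 23.9%. Its share was lower in every 24m library, with means of 32.5 ± 0.942% and 21.0 ± 2.29%. The mean level of Ank3 itself was higher in 24m, but the ages overlapped, and with the length offset its log2FC was -0.08. Ank2 held 16.9 ± 3.74% in 6m and 25.8 ± 5.33% in 24m, and the ages overlapped. Ank1 held 50.6 ± 3.77% and 53.2 ± 7.51%, and its difference of 2.56 percentage points turned to -0.758 without 24m replicate 1. The ratio of Nfasc to Nrcam was 1.32 ± 0.174 in 6m and 1.45 ± 0.329 in 24m, and its difference of 0.126 turned to -0.0282 without that library.

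The ratio of alpha spectrin to the 3 beta spectrins, per exonic base, was 1.33, 1.37, 1.27 and 1.34 in the 6m replicates. The 24m replicates gave 0.912, 0.897, 0.900 and 0.875. The ages did not overlap, and the spread within each age was small against the step, with means of 1.33 ± 0.0428 and 0.896 ± 0.0155 (SD, n = 4). These shares and ratios cover the 3 beta spectrins named and not the whole beta spectrin family, and they depend on which members are counted.

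**Figure D2:**
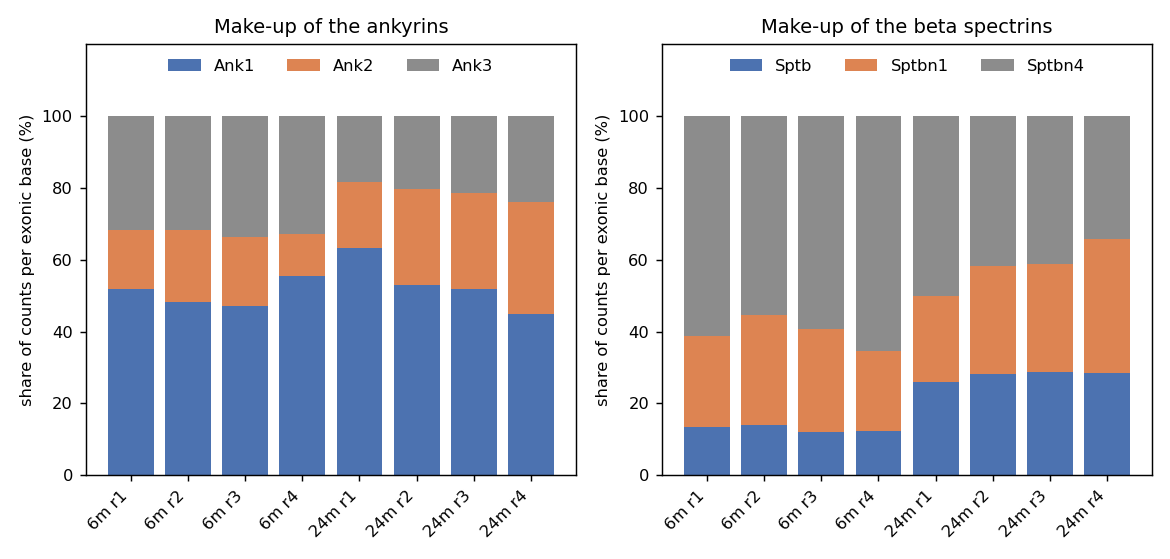
Share of counts per exonic base (vertical axis, %) held by each ankyrin (left) and by each of the 3 beta spectrins (right) in the 8 libraries, with r1 to r4 the replicates. The Sptb share is 11.98 to 13.9% in 6m and 26.0 to 28.6% in 24m, and the Ank3 share is lower in every 24m library than in any 6m library.

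These genes are long, and in these libraries the change with age followed gene length. Exonic length, the union of all annotated exons, ran from 9563 bases in Sptbn4 to 36572 bases in Ank3, at the 79.4th to 100th percentile of tested genes, whose median was 5768 bases. The median log2FC of tested genes was -0.76 below 1000 bases and 0.68 at 20000 bases and more (206 genes). Of the 3439 tested genes at least as long as Sptbn4, 43.7% were called higher and 7.07% lower. Their median log2FC was 0.45. The 7 of 9 called here are to be read against that 43.7% as well as against 25.3%. By library, the median deviation of these long genes from the 6m mean was -0.08 to 0.06 on the log2 scale in 6m. In 24m it was 0.15, 0.49, 0.48 and 0.68 in replicates 1 to 4, and the median of the 9 genes was 0.24, 0.97, 1.09 and 1.42. The 24m libraries thus stood in nearly the same order for long genes in general and for the ankyrins and spectrins.

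**Figure D3:**
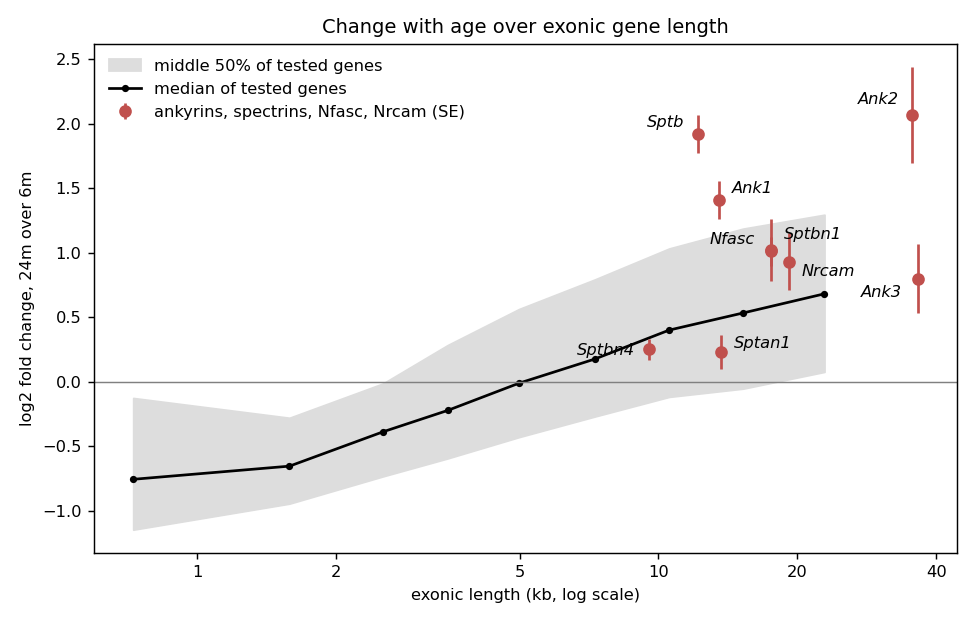
The log2FC of 24m over 6m (vertical axis) against exonic length in kb (horizontal axis, log scale), with the median and the middle 50% of all tested genes by length class and the 9 genes with their standard errors. Sptb and Ank1 lie above the grey band and Ank2 above its upper edge in the last class, while Sptbn4 and Sptan1 lie below the median for their length.

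When the trend over exonic length was removed with a smoothed offset in each library, 3 of the 9 genes were called higher, Ank1, Ank2 and Sptb, and 0 lower, with 21.3% of all tested genes called higher and 17.2% lower. Their log2FC were 0.90 ± 0.10 for Ank1 (padj = 7.01e-05), 1.19 ± 0.17 for Ank2 (padj = 0.000223) and 1.46 ± 0.09 for Sptb (padj = 9.97e-06, all edgeR). Sptbn1 (0.40 ± 0.12), Nfasc (0.42 ± 0.09) and Nrcam (0.29 ± 0.10) were higher by less than the fold threshold, with padj of 0.0175, 0.00236 and 0.0334. Ank3 was at -0.08 ± 0.11 (padj = 0.571) and Sptbn4 at -0.11 ± 0.10 (padj = 0.32). Sptan1 was at -0.27 ± 0.08 (padj = 0.0168), so that its direction and those of Ank3 and Sptbn4 turned with this setting. The median log2FC of the 9 genes was then 0.40, and that of all genes -0.03.

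Only 10 tested genes were as long as Ank2 or longer, so the offset at the lengths of Ank2 and Ank3 rested on few genes. With the length of the canonical transcript in its place, an alternative chosen after the data were seen, the same 3 genes were called higher, with 18% of all tested genes. The log2FC were 0.76 for Ank1, 1.22 for Ank2, 1.16 for Sptb and -0.03 for Ank3, and Sptan1 was at -0.50 ± 0.08 (padj = 0.000417, edgeR). Ank1, Ank2 and Sptb were also the 3 genes called with a length and GC offset (21.2% of all genes) and with the length offset without 24m replicate 1 (23.2%). How much of each change goes with length was not tested beyond these fits. DESeq2 called the 7 genes of the edgeR test, with 25.1% of all genes called higher, and limma-voom called 6, without Ank3, with 24.5%.

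**Figure D4:**
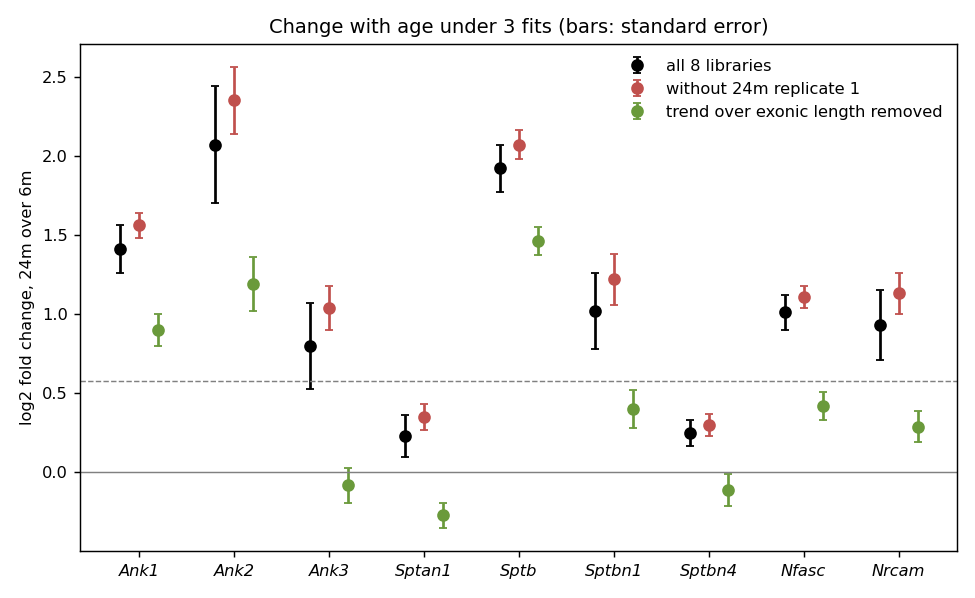
The log2FC of 24m over 6m with its standard error for each gene, with all 8 libraries (black), without 24m replicate 1 (red) and with the trend over exonic length removed (green). The dashed line is the fold threshold of 0.58, and with the trend removed only Ank1, Ank2 and Sptb lie above it.

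Of 15 listed genes of the spectrin-actin skeleton 13 were tested, and 8 of these were called higher and 0 lower, beside 25.3% of all tested genes and 43.7% of the long genes called higher. Tmod3, a tropomodulin named after its values were seen, had a log2FC of -0.43 ± 0.11 (padj = 0.00756, edgeR), with all 24m libraries below all 6m libraries, and was below the fold threshold. The median log2FC of the 13 was 0.90. Among these, Add2 and Add3, adducins that cap actin filaments at spectrin junctions, had the largest changes, at 1.94 ± 0.17 (padj = 3.4e-05) and 1.74 ± 0.21 (padj = 0.000151, edgeR). The smallest among called genes were Tmod1, a tropomodulin that caps the other filament end, at 0.84 ± 0.15 and Epb41l2, a relative of protein 4.1, at 0.90 ± 0.15. With the length offset 4 of the 13 were called higher and 1 lower, beside 21.3% and 17.2% of all genes. Leaving out 24m replicate 1, 8 were called higher and 0 lower, beside 27.8% and 21.9%.

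At the initial segment and node, 20 of 29 listed partners were called higher and 0 lower, beside 25.3% of all tested genes and 43.7% of the long genes called higher. The median log2FC of the list was 0.94, and with the length offset 14 partners were called higher and 2 lower, beside 21.3% and 17.2% of all genes. With 24m replicate 1 left out, 20 were called higher and 1 lower, beside 27.8% and 21.9% of all genes. The largest changes were in Kcna2, a potassium channel of the juxtaparanode and initial segment, at 2.81 ± 0.44 from 1.74 ± 0.373 CPM to 12.2 ± 7.08 CPM, and in Camsap2, which binds microtubule minus ends, at 2.23 ± 0.36. Kcna2 was also named by the study, which chose it on these samples. Channels that ankyrin-G anchors gave different values. The sodium channel Scn8a, the form of mature initial segments and nodes, rose by a log2FC of 1.58 ± 0.31 (padj = 0.00181, edgeR), with all 24m libraries (39.97, 86.7, 97.0 and 143.4 CPM) above the 6m libraries (25.4 to 33.5 CPM). Scn2a, the form of unmyelinated axons and immature segments, was at -0.22 ± 0.23 (padj = 0.42, edgeR), with 80.5 to 101.9 CPM in 6m and 43.2 to 110.3 CPM in 24m. The M-current channel subunit Kcnq3 was called at 0.65 ± 0.21 (padj = 0.0239, edgeR), with overlapping ages. The relatives of Nfasc and Nrcam also rose, L1cam by 1.17 ± 0.20 and Chl1 by 1.68 ± 0.29 (padj of 0.000857 and 0.000913, edgeR). These are the genes whose ankyrin-binding stretches are printed with those of Nfasc and Nrcam.

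The transporters and regulators were called higher about as often as long genes in general (43.7%), and nothing particular to them is read from their counts. Of 7 transporters held by ankyrins 3 were called higher, namely Itpr1, the calcium release channel, at 1.59 ± 0.24, and the sodium-calcium exchangers Slc8a1 at 1.14 ± 0.26 and Slc8a2 at 0.80 ± 0.10. The 4 sodium pump subunits of that list were not called, and the list's median was 0.43. Of 9 regulators 4 were called higher, namely Usp9x, a deubiquitinase, at 0.98 ± 0.25, Cast, which encodes the calpain inhibitor calpastatin, at 0.77 ± 0.16, the casein kinase subunit Csnk2a1 at 0.76 ± 0.15 and Capn2, a calpain that cleaves alpha spectrin, at 0.59 ± 0.12. With the length offset 2 transporters were called higher, while 0 regulators were called higher and 1 lower, beside 21.3% and 17.2% of all genes. Without 24m replicate 1, 3 transporters were called higher and 0 lower, and 5 regulators higher and 1 lower, beside 27.8% and 21.9%.

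**Figure D5:**
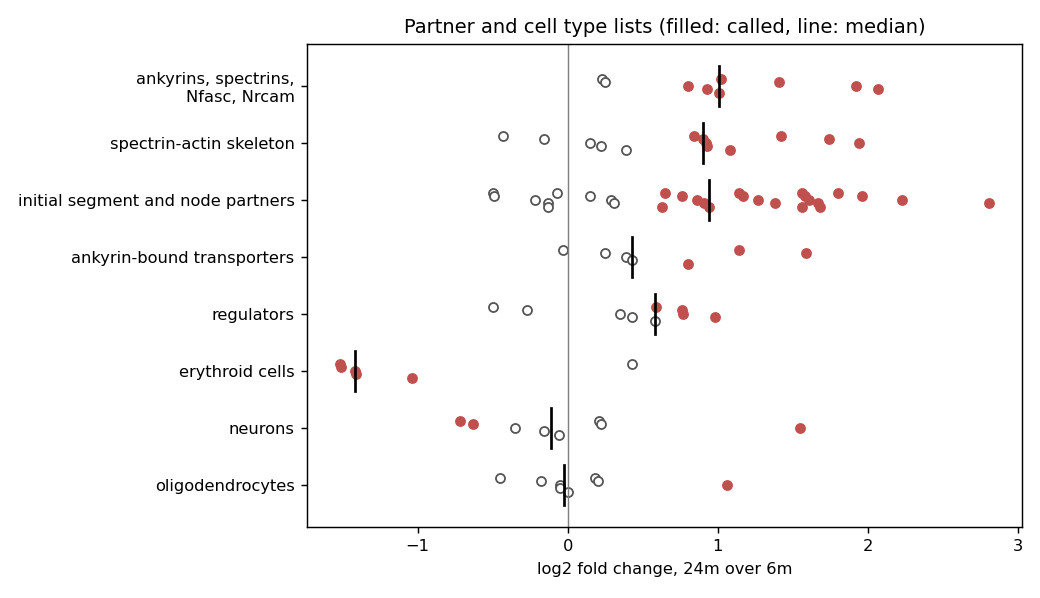
The log2FC of 24m over 6m (horizontal axis) of the 9 genes, of 4 lists of partner genes and of 3 lists of cell type markers, 1 point per tested gene, filled where called, with the median as a line. The medians of the 9 genes (1.01), the skeleton list (0.90) and the initial segment list (0.94) lie close together, and the erythroid median is -1.42, while with the length offset, which is not drawn, they are 0.40, 0.38, 0.57 and -0.76.

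Ank1 and Sptb are also made by red blood cell precursors, and markers of that lineage are given beside them. Of 6 erythroid markers tested 5 were called lower (haemoglobin genes and Alas2) and 0 higher, beside 18.3% of all tested genes called lower. The sixth, Slc4a1, was not called and had means of 0.338 ± 0.0859 and 0.452 ± 0.164 CPM at 6 and 24 months (log2FC 0.43 ± 0.30). The list's median log2FC was -1.42, and -0.76 with the length offset, and its summed level was 5426 to 7606 CPM in 6m and 1243 to 4157 CPM in 24m. The red cell skeleton gene Epb42, erythroid protein 4.2, had 0 to 3 counts per library and did not pass the filter. Cerebellar markers were given for comparison because Purkinje and granule cells are known to be rich in ankyrin-R and beta-I spectrin. Over all tested genes 25.3% were called higher and 18.3% lower, against which these and the following marker counts stand. Of 6 Purkinje markers 3 were called higher and 0 lower (summed level 675.5 to 906.8 CPM in 6m and 596.9 to 922.5 CPM in 24m). Without 24m replicate 1, 1 of the 6 was called higher and 1 lower (27.8% and 21.9% of all genes), and with the length offset 2 higher and 1 lower (21.3% and 17.2%). Of 5 granule cell markers 4 were called higher and 0 lower, with 126.8 to 194.5 CPM in 6m and 237.4 to 244.2 CPM in 24m, so their summed level did not overlap between ages. Without 24m replicate 1, and also with the length offset, again 4 were called higher and 0 lower, beside the same shares of all genes. The part of Purkinje and granule cells in the change of Ank1 and Sptb was not tested.

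Glial and neuronal lists gave mixed values. Of 8 neuronal markers 1 was called higher and 2 lower (median -0.11), and of 8 oligodendrocyte markers 1 was called higher and 0 lower (median -0.02), beside the rise of Nfasc, whose glial form is made by oligodendrocytes. Of 5 oligodendrocyte precursor markers 3 were called higher and 0 lower (summed level 32.9 to 35.2 CPM in 6m and 45.05 to 65.6 CPM in 24m). Of 8 astrocyte markers 5 were called higher and 1 lower, with overlapping summed levels of 2892 to 3826 CPM in 6m and 2847 to 3844 CPM in 24m. Microglial markers were called higher in 2 of 8 (554.6 to 618.9 CPM and 535.1 to 780.7 CPM), and endothelial markers higher in 1 and lower in 2 of 7 (75.2 to 110.4 CPM and 44.7 to 68.5 CPM). Without 24m replicate 1 the counts were 1 higher and 1 lower for oligodendrocytes and 2 higher and 2 lower for endothelial cells, and the counts of the other four lists in this paragraph did not change. The part of these cell types in the values of the 9 genes was not tested.

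The genes with the profile most like the mean log2 CPM of the 9 genes over the 8 libraries were Mast4, Kif13a and Limch1, with Pearson r of 0.9994, 0.9992 and 0.9988. Their log2FC were 2.15, 1.19 and 1.45. Among the 13961 genes compared 2434 had an r above 0.95, and all points share the 2 ages and the ordering of the 24m libraries, so the likeness is a description of these 8 libraries.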

How the data were processed

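Poly(A) RNA of a brain hemisphere from each of 8 mice (4 animals per age) went into strand-specific libraries that were read from both ends. Per the labels and the methods, the authors trimmed reads with Trim Galore 0.4.11, aligned them to GRCm39 with HISAT2 2.1.0 and counted them per Ensembl gene with featureCounts, and they deposited whole-number counts that are not normalized. Strand and multimapping settings were not given in the sources used here. Of 22430 listed genes 22281 were found in the GENCODE annotation of GRCm39 and 149 were not.

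The 16730 genes that exceeded 5 counts in 4 or more libraries were tested with edgeR 4.0.16 (R 4.3.3), using the quasi-likelihood test with TMM factors, age as the only term and Benjamini-Hochberg adjustment over all tested genes, at the thresholds of the study (adjusted p of 0.05 and log2 fold change of 0.58). CPM are counts per 1e+06 scaled by TMM, with a prior count of 2 for log2 values, and an SE is the log2 fold change divided by the root of F. The authors normalized by quantiles and row medians before DESeq2, whereas counts were used as deposited here.

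The 9 genes and the lists were chosen with earlier results of these data known. By rule all 9 were named, and from each partner list the called genes of at least 1 CPM on average that had the 2 highest and the 2 lowest fold changes, together with L1cam, Chl1, Scn2a, Scn8a and Kcnq3, and the 3 genes with the most similar profile. Alternatives were other scaling factors, filters and thresholds, DESeq2 1.42.0, limma 3.58.1 (voom), thinning, offsets over length or GC content (smoothed with a span of 0.3), each library left out and the replicate number as a block. Library totals were 63460940 to 103462414 counts. Isoforms were not analysed here, and some genes that the rule names are not reported here.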

Additional observations from a re-analysis of the deposited data

Results flagged for a closer look

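Sptb stood out within 6m: replicate 2 was at 82.5 CPM and the other three libraries at 71.3 to 72.5 CPM, so that the gap above the nearest library took 0.892 of the range of the group, past Dixon's critical value for 4 samples. It was 1 of 34 groups looked at, and chance flags about 1 group in 20. The highest 6m library was still below the lowest 24m library (199 CPM).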

How the results depend on the processing

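The calls of Ank1, Ank2 and Sptb held in all 24 alternatives, those of Sptbn1, Nfasc and Nrcam in 19 each and that of Ank3 in 13, while Sptan1 was called in 1 and Sptbn4 in 0. Removing the length trend left 3 of the 9 genes called higher in each of the 5 fits that did so. In the order length offset, length and GC offset, length offset without 24m replicate 1 and canonical length offset, the log2FC was -0.08, -0.11, -0.01 and -0.03 for Ank3, -0.27, -0.25, -0.25 and -0.50 for Sptan1, -0.11, -0.15, -0.14 and -0.46 for Sptbn4, 0.40, 0.35, 0.49 and 0.24 for Sptbn1, 0.42, 0.46, 0.38 and 0.26 for Nfasc, and 0.29, 0.23, 0.37 and 0.14 for Nrcam. The last pair of offsets was chosen after the data were seen. Ank3 was at 0.69 with limma-voom (padj = 0.0552), and its padj ran from 7.37e-05 to 0.915 over the alternatives. Sptan1 was called at 0.62 with DESeq2 on quantile-normalized counts, in which the row-median step of the study was not repeated. Why these values moved was not tested. Genes called lower numbered 1746 with library totals alone and 4999 on padj alone, against 3058.

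Leaving out each library in turn gave log2FC of 1.31 to 1.56 for Ank1, 1.75 to 2.35 for Ank2, 0.52 to 1.04 for Ank3, 0.16 to 0.35 for Sptan1, 1.83 to 2.07 for Sptb, 0.81 to 1.22 for Sptbn1, 0.20 to 0.30 for Sptbn4, 0.93 to 1.11 for Nfasc and 0.74 to 1.13 for Nrcam, and 6 to 7 genes called higher. Differences in shares between ages also moved. With canonical lengths the Ank3 share differed by -14.1 percentage points, the Sptb share by 12 and the Sptan1 ratio by -0.563. Shares over a wider beta spectrin family are not reported here. Over the libraries left out, the Ank1 share differed by -0.758 to 5.31 percentage points and the Nfasc to Nrcam ratio by -0.0282 to 0.228, both turning without 24m replicate 1, while the other shares and the Sptan1 ratio did not change direction.

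The labels do not say whether the replicate numbers pair the animals. Deviations of same-numbered libraries from their age means correlated at 0.271, 0.143, 0.0778 and -0.348, and only replicate 1 of 6m was most like its own number. No pairing was seen, but 4 libraries per age are too few to exclude it. With the replicate block 4112 genes were called higher and 3130 lower, and the log2FC was 1.39 for Ank1, 1.93 for Ank2, 0.69 for Ank3, 0.22 for Sptan1, 1.90 for Sptb, 0.96 for Sptbn1, 0.25 for Sptbn4, 0.99 for Nfasc and 0.88 for Nrcam, with the same 7 called. With the replicate block and the length offset together, 3 of the genes were called, and the values were -0.08 for Ank3, -0.27 for Sptan1, -0.11 for Sptbn4, 0.39 for Sptbn1, 0.42 for Nfasc and 0.28 for Nrcam.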
